A study of Mus musculus with 6 samples.

Results

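Plasminogen activators, the receptor and serpins that act on them, and the tissue inhibitors of metalloproteinases (TIMPs) were described in Lewis lung carcinoma tumours by messenger RNA sequencing. The 8 genes were taken by symbol from a table of 19288 genes, namely Plau, Plat, Plaur, Serpine2, Serpinb2, Timp1, Timp2 and Timp3, and each symbol had 1 row. LLC1 cells (ATCC CRL-1642), a mouse lung carcinoma line, were implanted under the skin, and tumours were taken 30 days later. All hosts carried a beta-hCG transgene and were offspring of a CB57BL/6 female (as the labels spell it) and a transgenic FVB male, so the transgene and the host cross do not differ between groups. Progesterone tumours came from ovariectomized hosts given progesterone for 28 days, vehicle tumours from ovariectomized hosts given vehicle for 28 days, and transgenic tumours from hosts for which the labels name no ovariectomy or supplement. Each group had 2 libraries. The sources used here give neither the promoter of the transgene nor the age of the hosts. They do not say that libraries came from separate animals, so each p-value reflects library-to-library spread, which may be technical. Vehicle and transgenic tumours differ both by ovariectomy and by the vehicle, and these cannot be told apart.

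Urokinase (Plau) and tissue plasminogen activator (Plat) are serine proteases that cut plasminogen into plasmin, which dissolves fibrin, degrades matrix proteins and activates several matrix metalloproteinases. Urokinase acts mostly at the cell surface, bound to its receptor (Plaur), whereas Plat acts mostly on fibrin and is made by endothelial cells. Serpine2 (protease nexin 1) inhibits thrombin and both activators, and Serpinb2 (plasminogen activator inhibitor 2) inhibits both activators and is largely kept inside macrophages and keratinocytes. TIMPs block metalloproteinases: Timp1 is secreted and inducible, Timp2 is widely made at a steady level and also takes part in the activation of the Mmp2 proenzyme, and Timp3 binds to the matrix and inhibits Adam17 as well. In bulk tumour RNA fewer cells of a type and less RNA per cell cannot be told apart, and tumour and host transcripts are both mouse.

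Library totals ran from 19526775 to 30083925 counts. Spearman correlations between replicates were 0.974 in the progesterone, 0.986 in the vehicle and 0.969 in the transgenic group, and their counts differed by more than sampling noise. Of the lung lineage markers, Epcam stood at 0.0530 to 0.222 CPM (counts scaled to a common library size) and Sftpc at 0 to 0.0370 CPM, while the keratins Krt8 and Krt18 had at least 125 CPM in every library. No gene was called by edgeR's quasi-likelihood test at a Benjamini-Hochberg adjusted p under 0.05 among the 13632 genes tested. This held in each of the 3 pairwise comparisons (0% called in each) and in the test of any difference among the 3 groups (0% called). At an unadjusted p under 0.05 there were 759 genes for vehicle over transgenic, 721 for progesterone over vehicle, 718 for progesterone over transgenic and 768 for any difference. DESeq2 called 66, 75, 47 and 120 genes and limma-voom 0 in each, and no member was called by either tool.

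The members lie on 7 chromosomes of GRCm38. Plau (ENSMUSG00000021822) spans chr14:20836660-20843385, Plat (ENSMUSG00000031538) chr8:22757727-22782844 and Plaur (ENSMUSG00000046223) chr7:24462484-24475968. Serpine2 (ENSMUSG00000026249) spans chr1:79794197-79861180 and Serpinb2 (ENSMUSG00000062345) chr1:107511423-107535478. Timp1 (ENSMUSG00000001131) lies at chrX:20870166-20874735 inside the Syn1 gene, Timp2 (ENSMUSG00000017466) at chr11:118301069-118355740, and Timp3 (ENSMUSG00000020044) at chr10:86300372-86349506 inside the Syn3 gene. Syn3 runs on the other strand and shares 1733 exon bases with Timp3, Serpinb10 shares 291 exon bases with Serpinb2 on the same strand, and Syn1 shares 0 with Timp1. Whether counting used the strand is not stated, so reads of Timp3 and Syn3 may not have been told apart. Reads in the bases shared by Serpinb2 and Serpinb10 cannot be assigned by strand in any case, and the Timp3 and Serpinb2 values are uncertain to that extent. Syn3 had 1 to 15 counts and Serpinb10 4 to 15, against 52 to 902 for Timp3 and 54 to 1884 for Serpinb2.

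RefSeq promoters (GRCm38.p6) were matched for 6 members. Those of Serpinb2, Timp2 and Plaur are shown because the first varied most between libraries, the second least, and Plaur had the smallest p of the members in any comparison. Each run is the 250 bases before the start site on the gene's strand, with capitals for matches to the motifs given after them.

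Serpinb2, chr1:107511173-107511422, plus strand: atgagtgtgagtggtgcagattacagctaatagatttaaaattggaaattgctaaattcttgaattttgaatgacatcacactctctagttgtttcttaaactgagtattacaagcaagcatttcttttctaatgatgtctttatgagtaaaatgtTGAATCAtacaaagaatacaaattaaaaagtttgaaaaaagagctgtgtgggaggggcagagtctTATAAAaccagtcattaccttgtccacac

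Timp2, chr11:118355412-118355661, minus strand: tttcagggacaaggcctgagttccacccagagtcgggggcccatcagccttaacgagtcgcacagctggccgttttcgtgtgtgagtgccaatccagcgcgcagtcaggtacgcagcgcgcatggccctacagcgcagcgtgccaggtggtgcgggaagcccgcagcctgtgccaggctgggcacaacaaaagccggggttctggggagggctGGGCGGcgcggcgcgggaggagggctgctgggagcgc

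Plaur, chr7:24462233-24462482, plus strand: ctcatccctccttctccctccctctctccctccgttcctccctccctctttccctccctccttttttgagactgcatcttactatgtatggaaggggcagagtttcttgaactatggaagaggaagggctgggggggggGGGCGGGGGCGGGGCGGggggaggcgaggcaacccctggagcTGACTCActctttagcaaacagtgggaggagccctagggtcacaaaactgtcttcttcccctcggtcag

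Searched on both strands were the AP-1 motif TGANTCA, the TATA box TATAAA, the GC box GGGCGG, the hypoxia response core ACGTG and the half-site AGAACA of the progesterone and glucocorticoid receptors. The Serpinb2 promoter held an AP-1 match 94 to 88 bases and a TATA box 29 to 24 bases before the start, with 0 CpG dinucleotides and 32.4% G and C. RefSeq lists a second Serpinb2 start downstream, and its window held the same AP-1 and TATA matches. The Timp2 promoter held 1 GC box, 21 CpG dinucleotides and 68.0% G and C. This window lies inside the GENCODE span of Timp2, which reaches chr11:118355740, so the RefSeq start used here is downstream of the GENCODE one. The Plaur promoter held an AP-1 match 69 to 63 bases before the start and 3 GC boxes between 111 and 95 bases before it, of which the last 2 share 1 base. Among all 32851 promoters of this length, 6.75% held the AP-1 motif, 12.4% the TATA box, 32.7% the GC box, 16.6% the hypoxia core and 16.1% the half-site. The hypoxia core occurred in 1 member promoter, that of Timp1, and the half-site in 0. A match describes letters in the window and was not tested for binding.

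Levels between genes were compared as CPM per kb of annotated exon. By the average over the 6 libraries, Plau was the most abundant member and stood at the 98.9th percentile of tested genes. It had 181 ± 18.2 in progesterone, 331 ± 89.2 in vehicle and 199 ± 65.7 CPM per kb in transgenic tumours (SD, n = 2 each). Timp2 came next, at 145 ± 9.03 in progesterone, 169.5 ± 8.88 in vehicle and 155 ± 9.11 CPM per kb in transgenic tumours. In transgenic replicate 2 Timp2 stood above Plau, at 162 against 152 CPM per kb. Plaur and Timp1 formed a middle pair with averages over the 6 libraries of 49.2 and 46.5 CPM per kb, and their ranges of 32.5 to 68.2 and 36.5 to 64.3 overlapped. Plat and Serpinb2 followed with averages of 9.58 and 8.80 CPM per kb, Serpinb2 ranging so widely that it enclosed the whole range of Plat. Timp3 (1.61 CPM per kb) and Serpine2 (0.910) were lowest, at the 25.5th and 19.7th percentiles. Within roles, Plau made up 91.0% to 98.3% of the summed per-length level of the activators, Serpinb2 61.4% to 98.4% of that of the 2 serpins, and Timp2 66.8% to 81.8% of that of the 3 TIMPs.

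**Figure D1:**
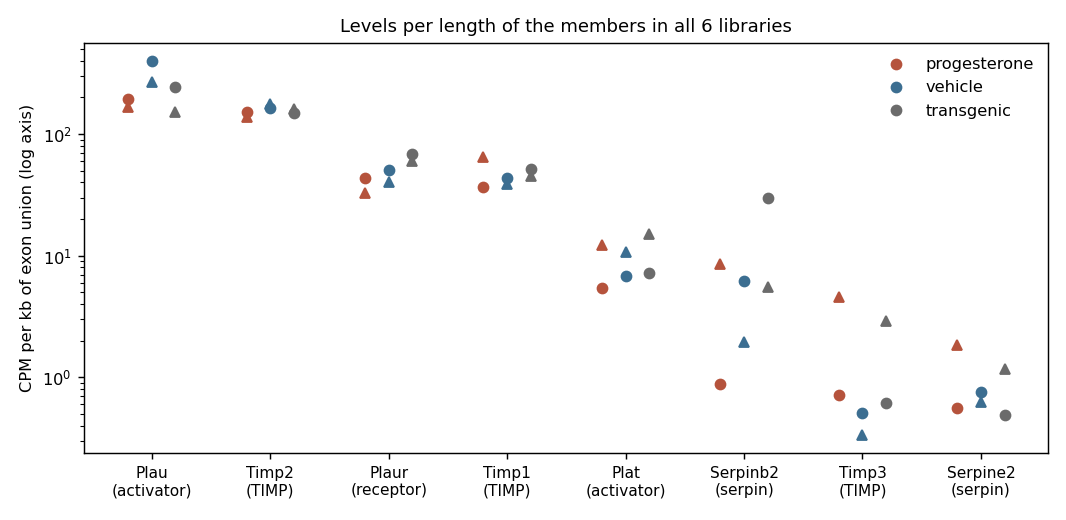
Levels of the 8 members in CPM per kb of exon (log axis), with 1 symbol per library (circle, replicate 1; triangle, replicate 2) and colours for the progesterone, vehicle and transgenic tumours, ordered by the average over 6 libraries. Plau and Timp2 lie above 100 CPM per kb in every library, and Timp3 and Serpine2 below 5.

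Of the activators, Plau was highest in the vehicle tumours. It had 458 and 397 CPM in progesterone, 934 and 635 CPM in vehicle and 579.9 and 359.9 CPM in transgenic libraries. Both vehicle libraries stood above all 4 others, and the progesterone values fell inside the range of the transgenic ones. The log2 fold change was 0.74 ± 0.28 (SE) for vehicle over transgenic (edgeR unadjusted p = 0.0349, adjusted p = 0.843). For progesterone over vehicle it was -0.88 ± 0.28 (unadjusted p = 0.0177, adjusted p = 0.932), and for progesterone over transgenic -0.14 ± 0.28 (unadjusted p = 0.646, adjusted p = 0.995). The first 2 contrasts share the vehicle libraries. Each kept its sign without any 1 library, at 0.44 to 1.13 and at -1.13 to -0.58, and that for progesterone over transgenic became 0.25 without transgenic replicate 1.

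Plat did not follow Plau. It had 33.9 and 76.5 CPM in progesterone, 42.5 and 66.7 CPM in vehicle and 45.0 and 94.2 CPM in transgenic libraries. The groups overlapped in all 3 comparisons, and replicate 2 of each group was the higher one. The log2 fold changes were -0.35 ± 0.47 for vehicle over transgenic, 0.017 ± 0.47 for progesterone over vehicle and -0.33 ± 0.47 for progesterone over transgenic, with edgeR adjusted p of 0.969, 0.999 and 0.994. The 95% interval of the middle one ran from -1.10 to 1.13, so changes of about 2-fold either way lie inside it. Without transgenic replicate 2 the change for vehicle over transgenic became 0.28 and that for progesterone over transgenic 0.29, which also turned without progesterone replicate 1 (0.14). The change for progesterone over vehicle became -0.69 without progesterone replicate 2 and -0.28 without vehicle replicate 1.

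The urokinase receptor was highest in the transgenic tumours. Plaur had 113 and 85.1 CPM in progesterone, 133 and 105 CPM in vehicle and 178 and 157 CPM in transgenic libraries. Both transgenic libraries stood above the other 4, whereas the progesterone and vehicle values overlapped. The log2 fold change was -0.50 ± 0.20 for vehicle over transgenic (edgeR unadjusted p = 0.0416, adjusted p = 0.862) and -0.26 ± 0.20 for progesterone over vehicle (unadjusted p = 0.229, adjusted p = 0.999). For progesterone over transgenic it was -0.76 ± 0.20 (unadjusted p = 0.00665, adjusted p = 0.914), the smallest unadjusted p of any member, ranked 69th of 13632 genes. All 3 kept their sign without any 1 library. Under the alternatives the adjusted p of the last ranged from 0.128, by DESeq2, to 1.

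**Figure D2:**
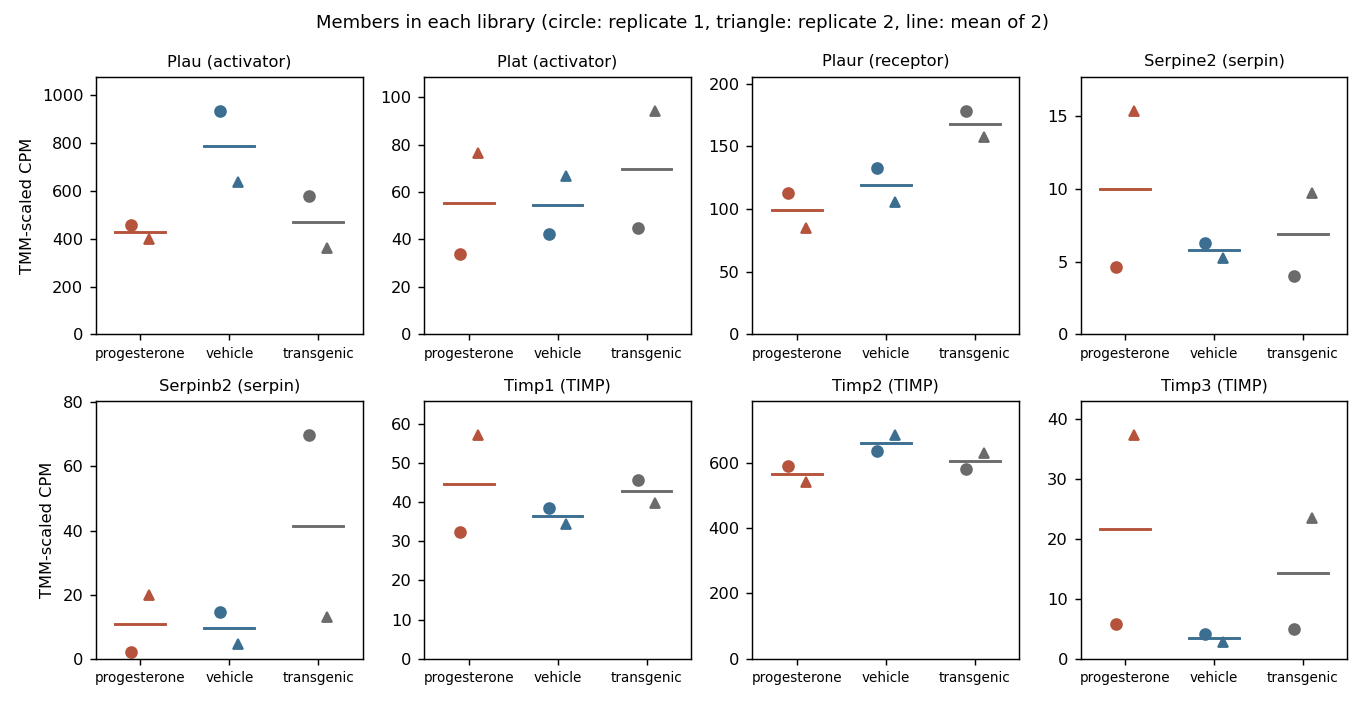
TMM-scaled CPM of each member in every library, by group (progesterone, vehicle, transgenic), with the mean of 2 as a line. Plau is highest in both vehicle libraries and Plaur in both transgenic libraries, while Serpine2, Serpinb2 and Timp3 have the largest relative differences between replicates in the progesterone and transgenic groups. In the vehicle group Serpinb2 does, followed by Plat.

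The serpins were low and uneven. Serpine2 had 4.64 and 15.3 CPM in progesterone, 6.28 and 5.25 CPM in vehicle and 4.04 and 9.69 CPM in transgenic libraries. Progesterone replicate 2 and transgenic replicate 2 were the 2 highest, and the groups overlapped in all comparisons. The log2 fold changes were -0.25 ± 0.63 for vehicle over transgenic, 0.79 ± 0.64 for progesterone over vehicle and 0.54 ± 0.63 for progesterone over transgenic, with edgeR adjusted p of 0.991, 0.999 and 0.985. Their signs turned without 1 replicate. The first became 0.52 without transgenic replicate 2, and the others -0.31 and -0.56 without progesterone replicate 2.

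Serpinb2 spanned the widest range of all members, its highest library standing 33.4-fold above its lowest. It had 2.09 and 19.9 CPM in progesterone, 14.6 and 4.56 CPM in vehicle and 69.8 and 13.1 CPM in transgenic libraries. Transgenic replicate 1 stood apart, and the other 5 libraries overlapped across groups. The SD of its log2 level over the 6 libraries lay at the 98.9th percentile of tested genes. The log2 fold changes of -2.10 ± 1.13 for vehicle over transgenic and -1.92 ± 1.12 for progesterone over transgenic (edgeR adjusted p = 0.891 and 0.928) became -0.44 and -0.26 without transgenic replicate 1. For progesterone over vehicle it was 0.18 ± 1.10 (adjusted p = 0.999), with -2.21 without progesterone replicate 2 and -0.42 without vehicle replicate 2. Keratinocyte markers summed to 1.70 and 1.86 CPM in progesterone, 1.41 and 1.27 CPM in vehicle libraries, and were highest in transgenic replicate 1 and lowest, at 0.421 CPM, in transgenic replicate 2. Krt5 and Krt14 were at 0 in all libraries but transgenic replicate 1. In that library they had 0.0741 and 0.0370 CPM, both under the 0.111 CPM that 3 counts make there. Krt10, the only keratinocyte gene past the filter, had 1.30 CPM in that library. It had 1.58 and 1.49 CPM in progesterone and 1.03 and 1.22 CPM in vehicle libraries. The macrophage and monocyte markers were lowest in transgenic replicate 1, at a summed 1311 CPM against 1621 to 2960 CPM in the other libraries. The neutrophil markers were highest there, at 256 CPM against 59.6 to 193 CPM. The part of these cell types in the Serpinb2 values was not tested.

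Timp2 was nearly level in all tumours. It had 591 and 541 CPM in progesterone, 636 and 685 CPM in vehicle and 579 and 629.7 CPM in transgenic libraries. Both vehicle libraries stood above the other 4, by a small margin over a highest-to-lowest ratio of 1.27. The SD of its log2 level lay at the 8.67th percentile of tested genes. The log2 fold changes were 0.13 ± 0.16 for vehicle over transgenic, -0.22 ± 0.16 for progesterone over vehicle and -0.095 ± 0.16 for progesterone over transgenic (edgeR adjusted p of 0.969, 0.999 and 0.995). All 3 of their 95% intervals lay within -0.60 to 0.50.

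Timp1 varied more than Timp2, and the SD of its log2 level lay at the 56.3rd percentile of tested genes. It had 32.4 and 57.1 CPM in progesterone, 38.5 and 34.5 CPM in vehicle and 45.8 and 39.7 CPM in transgenic libraries. Progesterone held both the highest and the lowest value, and both vehicle libraries stood below both transgenic ones. The log2 fold changes were -0.23 ± 0.28 for vehicle over transgenic, 0.29 ± 0.28 for progesterone over vehicle and 0.065 ± 0.28 for progesterone over transgenic, with edgeR adjusted p of 0.969, 0.999 and 0.996. Without progesterone replicate 2 the last 2 were -0.17 and -0.40, and the last was -0.036 without transgenic replicate 2. The gene Syn1, which encloses Timp1 on the other strand, had 466 to 1356 counts against 650 to 1381 for Timp1.

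Timp3 varied far more than the other TIMPs. It had 5.83 and 37.3 CPM in progesterone, 4.15 and 2.76 CPM in vehicle and 5.04 and 23.5 CPM in transgenic libraries. Both vehicle libraries were below all others, but replicate 2 of the progesterone and of the transgenic group stood apart from the remaining 4 libraries. The log2 fold change was 2.63 ± 0.98 for progesterone over vehicle (edgeR unadjusted p = 0.0310, adjusted p = 0.939) and 0.75 without progesterone replicate 2. For vehicle over transgenic it was -2.04 ± 0.97 (unadjusted p = 0.0724, adjusted p = 0.883) and -0.53 without transgenic replicate 2. For progesterone over transgenic it was 0.60 ± 0.92 (unadjusted p = 0.534, adjusted p = 0.995), with -1.29 without progesterone replicate 2 and -0.13 without transgenic replicate 1. The adjusted p for progesterone over vehicle ranged from 0.0918, with no filter on low counts, to 1.

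**Figure D3:**
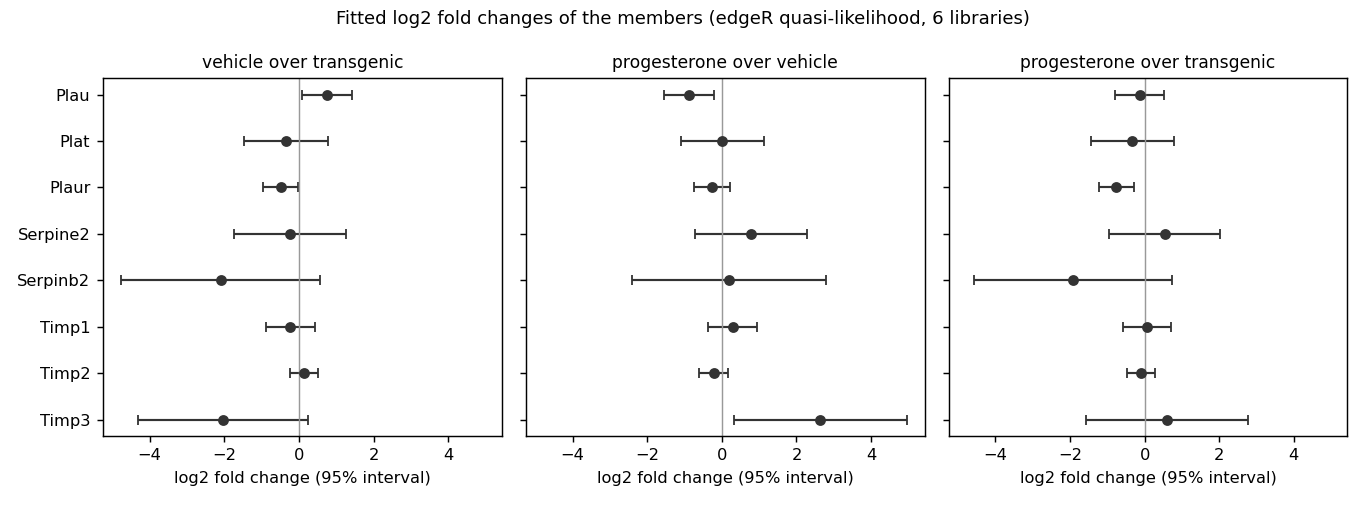
Log2 fold changes of the members with 95% intervals from the edgeR fit to 6 libraries, for vehicle over transgenic, progesterone over vehicle and progesterone over transgenic tumours. Intervals leave out 0 for Plau and Plaur in vehicle over transgenic, Plau and Timp3 in progesterone over vehicle, and Plaur in progesterone over transgenic, and none of these passed after adjustment over all genes.

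The members' counts were read against the whole table. For vehicle over transgenic, Plau and Timp2 were higher in both libraries than in either transgenic library (2 of 8 members, where 17.9% of all tested genes were). Plaur, Timp1 and Timp3 were lower in the same sense (3 of 8, against 17.7% of all genes). For progesterone over vehicle, Timp3 was higher without overlap (1 of 8, against 18.5%), and Plau and Timp2 were lower (2 of 8, against 17.8%). For progesterone over transgenic, 0 members were higher (14.5% of all genes were), and Plaur alone was lower (1 of 8, against 14.5%).

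Proteases were then set against inhibitors, and Plau against its receptor Plaur, within each library, as differences of log2 CPM per kb. Plau exceeded Plaur by 2.16 and 2.37 in progesterone, 2.96 and 2.74 in vehicle and 1.85 and 1.34 in transgenic libraries. The 3 groups did not overlap, with the transgenic tumours lowest and the vehicle tumours highest, which was so for 1 of the 9 pairs of members examined. How often other pairs of genes separate the groups was not computed, so nothing particular to this pair is read from it. The mean differences were 2.26 ± 0.14, 2.85 ± 0.16 and 1.59 ± 0.36 in that order of groups (SD, n = 2 each). By exact permutation, 2 libraries against 2 cannot give a two-sided p below 0.333, and the pairs were chosen with earlier results known, so no p is given.

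Plau exceeded Serpine2 by 8.41 and 6.49 in progesterone, 9.01 and 8.71 in vehicle and 8.95 and 7.01 log2 units in transgenic libraries. The vehicle values were above the progesterone ones and overlapped the transgenic range. Plau exceeded Serpinb2 by 7.71 and 4.30 in progesterone, 5.98 and 7.09 in vehicle and 3.04 and 4.76 log2 units in transgenic libraries, with both vehicle libraries above both transgenic ones. The summed per-length level of Plau and Plat was 137 and 17.4 times that of Serpine2 and Serpinb2 in progesterone, 57.4 and 108 times in vehicle and 8.35 and 24.8 times in transgenic libraries. In every library the activators outweighed these serpins, and the progesterone libraries held both the highest ratio and one inside the range of the transgenic ones. Other inhibitors of the activators are not in this ratio.

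The TIMP sum hardly differed between tumours, at 189 and 208 CPM per kb in progesterone, 207 and 215 in vehicle and 201 and 209 in transgenic libraries. The 18 Mmp genes of the metalloproteinase list summed to 477 and 354 CPM per kb in progesterone, 1496 and 1738 in vehicle and 896 and 293 in transgenic libraries. The Mmp sum was therefore 2.53 and 1.70 times the TIMP sum in progesterone, 7.22 and 8.09 times in vehicle and 4.46 and 1.40 times in transgenic libraries. Mmp3 (stromelysin 1), which degrades matrix proteins, had 205 and 109 CPM per kb in progesterone, 1160.1 and 1312 in vehicle and 632 and 118 in transgenic libraries. Without Mmp3 the Mmp to TIMP ratio was 1.44 and 1.18 in progesterone, 1.62 and 1.98 in vehicle and 1.32 and 0.832 in transgenic libraries. Vehicle still did not overlap the others, at 1.62 against 1.44 where they came closest. How often ratios of other gene sums separate the groups was not computed, so nothing particular to this ratio is read from it. Mmp14, the membrane-bound metalloproteinase that TIMP2 links to Mmp2 activation, ran from 118 to 198 CPM per kb. Mmp2 itself was at 1.72 and 42.2 in progesterone, 0.712 and 1.29 in vehicle and 0.747 and 3.34 CPM per kb in transgenic libraries.

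**Figure D4:**
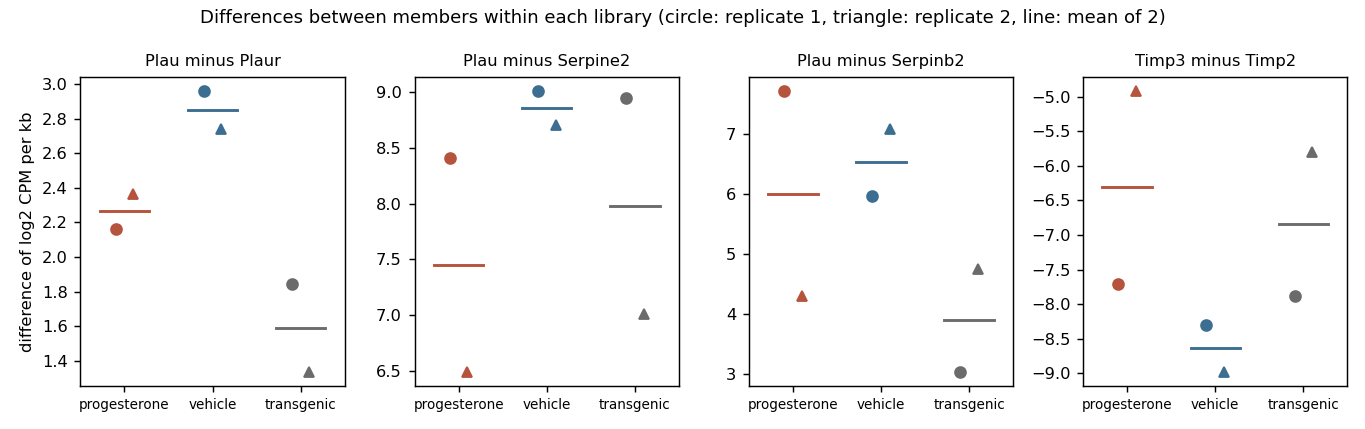
Differences between pairs of members within each library, in log2 CPM per kb, by group with the mean of 2 as a line (vertical axes do not start at 0). Plau minus Plaur separates the 3 groups, between 1.34 and 2.96. Timp3 minus Timp2 is lower in both vehicle libraries (-8.30 and -8.98) than in all others. It spreads widely within the progesterone (-7.71 and -4.92) and transgenic groups (-7.89 and -5.80), which overlap.

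Other genes of the plasminogen system gave 0 calls. Of 23 in the list 22 were in the table and 16 passed the filter on low counts. For vehicle over transgenic 10 were higher and 6 lower, with a median log2 fold change of 0.067 against -0.011 over all tested genes. For progesterone over vehicle 7 were higher and 9 lower (median -0.16, all genes 0.0065), a median that became 0.30 without vehicle replicate 2. For progesterone over transgenic 10 were higher and 6 lower (median 0.22, all genes 0.0061). Without transgenic replicate 1 the first and last medians were 0.42 each. Plasminogen (Plg), made mainly by the liver, had 0 counts in 5 libraries, where the limit a count of 0 allows is 0.0997 to 0.154 CPM, and 0.0414 CPM in progesterone replicate 2. The endocytic receptor Lrp1, which clears protease-inhibitor complexes, averaged 1386 ± 236 CPM in vehicle and 862 ± 31.5 CPM in transgenic tumours (log2 fold change 0.69 ± 0.22, edgeR adjusted p = 0.827). The plasminogen receptor Plgrkt had 42.1 ± 1.76 CPM in progesterone and 31.5 ± 0.302 CPM in vehicle tumours (0.42 ± 0.17, adjusted p = 0.939). Hepatocyte growth factor (Hgf), a zymogen related to plasminogen, had 24.1 ± 17.2 CPM in vehicle and 7.60 ± 5.75 CPM in transgenic tumours (1.66 ± 0.68, adjusted p = 0.865).

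The metalloproteinase list, the enzymes that TIMPs act on, had 25 of 29 genes past the filter and 0 called. For vehicle over transgenic 13 were higher and 12 lower (median 0.033), for progesterone over vehicle 10 and 15 (median -0.21), and for progesterone over transgenic 13 and 12 (median 0.0055). Without transgenic replicate 1 the first and last of these medians were 0.37 and 0.43, without progesterone replicate 1 the last was -0.14, and with no filter on low counts the first was -0.032. Mmp12, the macrophage elastase, had the smallest p, at 126 ± 40.0 CPM in progesterone, 513 ± 77.7 CPM in vehicle and 122 ± 31.5 CPM in transgenic tumours (edgeR adjusted p = 0.587 for vehicle over transgenic and 0.668 for progesterone over vehicle). Mmp3 averaged 283 ± 122 CPM in progesterone and 2226 ± 193 CPM in vehicle tumours (log2 fold change -2.97 ± 0.72, adjusted p = 0.932). Other inhibitors of metalloproteinases were rare, with Reck, a membrane-anchored inhibitor, at 1.43 to 7.78 CPM and Timp4 at 0 to 0.124 CPM. In a list of 13 further serpins 10 passed the filter and 0 were called, with 7 higher for vehicle over transgenic, 6 for progesterone over vehicle and 8 for progesterone over transgenic (medians 0.37, 0.075 and 0.36). Among them Serpinb1a, an inhibitor of neutrophil proteases, averaged 8.95 ± 5.72 CPM in progesterone and 1.52 ± 0.106 CPM in vehicle tumours (log2 fold change 2.56 ± 0.61, adjusted p = 0.932).

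Profiles over the 6 libraries were compared after centring each gene's log2 CPM on its mean, and likeness was the root mean square difference in log2 units over 10433 other genes. The genes closest to Plau were Bdkrb2 (0.11), a bradykinin receptor, Zfp9 (0.11) and Hk2 (0.12), the hexokinase of the hypoxia list. The hypoxia list summed to 4636 and 3997 CPM in progesterone, 6984 and 6450 CPM in vehicle and 5171 and 3920.0 CPM in transgenic libraries. By this sum the 6 libraries stood in the same order as for Plau. By the centred mean of log2 CPM over its genes, progesterone replicate 1 (-0.32) stood below replicate 2 (-0.27). Plau had the reverse, at -0.21 and -0.42. Its 14 tested genes were all higher for vehicle over transgenic (median 0.73) and all lower for progesterone over vehicle (median -0.83), with 0 called. Immediate early genes summed to 1762 and 1381 CPM in progesterone, 2673 and 2148 CPM in vehicle and 2183 and 1504 CPM in transgenic libraries. Of their 14 tested genes 13 were higher for vehicle over transgenic (median 0.35) and 14 lower for progesterone over vehicle (median -0.62), with 0 called, the directions that Plau and the hypoxia list also had. Over all tested genes these medians were -0.011 and 0.0065. The library order of the list was not that of Plaur, whose highest library, transgenic replicate 1, came second here. Closest to Plaur were Tnfrsf12a (0.08), the receptor of the cytokine TWEAK, Mthfd2 (0.10), a mitochondrial folate enzyme, and Ddx28 (0.12). The part of hypoxia or of immediate early factors in these levels was not tested.

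Serpine2, Timp3 and Plat shared their highest pair of libraries, replicate 2 of the progesterone and of the transgenic group. Closest to Serpine2 was Rgs5 (0.23), a pericyte marker, followed by Ctsh and Tns1 (0.26 each). Closest to Timp3 were Igfbp5 (0.60), Slfn5 (0.61) and Adamts2 (0.63), a procollagen peptidase. The root mean square of the centred Timp3 profile itself was 1.36, so these distances are not comparable with those of less variable members. The pericyte and smooth muscle markers summed to 99.0 and 271 CPM in progesterone, 159 and 157 CPM in vehicle and 157 and 213 CPM in transgenic libraries, with the same 2 libraries highest. Closest to Plat were Acvr2b (0.17), Capn5 (0.17) and Tln2 (0.21). Endothelial markers summed to 131 and 307 CPM in progesterone, 293 and 289 CPM in vehicle and 290.2 and 349.8 CPM in transgenic libraries, with the same lowest and the same 2 highest libraries as Plat. Fibroblast markers summed to 5324 and 11704 CPM in progesterone, 7454 and 12451 CPM in vehicle and 8236 and 2720.1 CPM in transgenic libraries. The sum was lowest in transgenic replicate 2, where Timp3 was second highest. Col3a1 made up much of the sum, at 1414 CPM there and 6169 CPM in transgenic replicate 1. By the centred mean of log2 CPM over the 14 genes, progesterone replicate 1 was lowest (-0.57), next to transgenic replicate 2 (-0.54). Progesterone replicate 2 was highest (1.31), as for Timp3. Serpinb2 had no close match, its nearest gene, Il31ra, being 0.89 away, where its own profile had a root mean square of 1.59. Pecam1, from the endothelial marker list, had 35.4 to 99.5 CPM, and Acta2, from the pericyte and smooth muscle list, had 28.4 to 65.4 CPM. The part of these cell types in the member values was not tested.

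**Figure D5:**
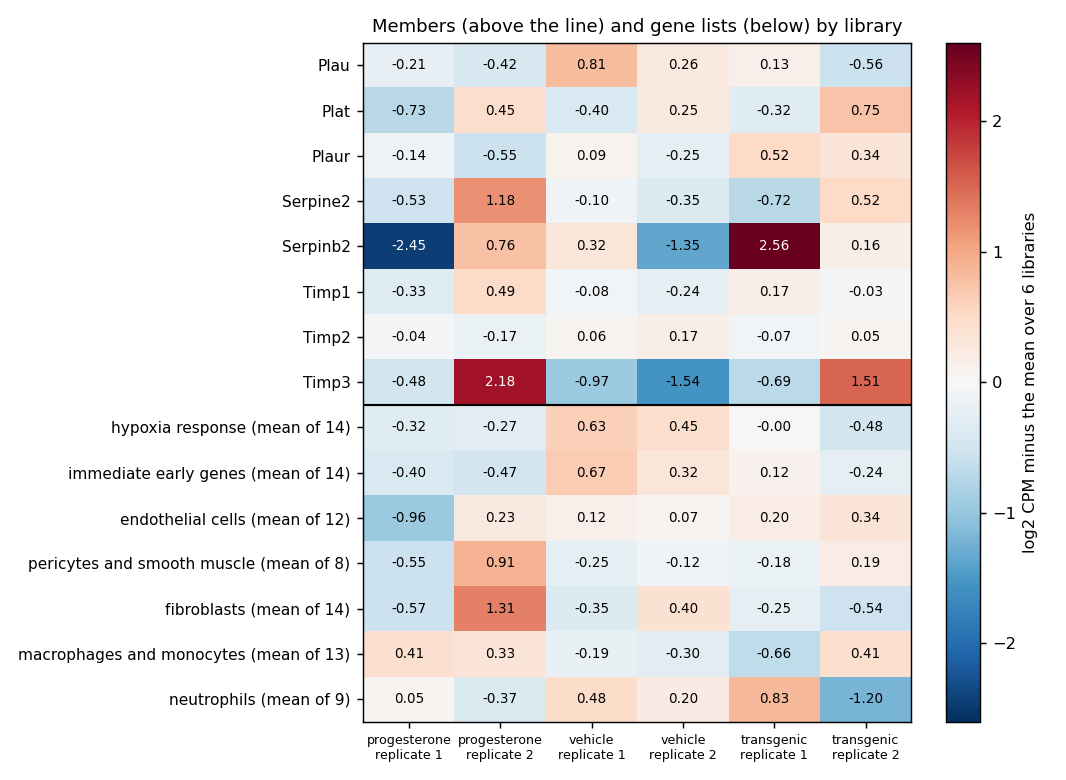
Log2 CPM minus the mean over 6 libraries for the 8 members (above the line) and the means of 7 of the gene lists (below it), with progesterone, vehicle and transgenic libraries from left to right. Timp3 and Serpine2 are highest in replicate 2 of the progesterone and transgenic groups, Plau and the hypoxia list are both highest in the 2 vehicle libraries, and Timp2 stays between -0.17 and 0.17.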

How the data were processed

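The authors deposited raw read counts per Ensembl gene for 6 libraries. HISAT2, HTSeq, DESeq and GRCm38.p6 are named in the submitters' processing notes, whose versions, settings and use of strand are not stated there. Per the labels' protocols, a directional mRNA kit was used on 500 ng of total RNA, with 11 indexing PCR cycles. Gene spans and exon lengths came from GENCODE M21 (GRCm38), where 19284 of 19288 IDs were found and 19192 had the same symbol. Counts were analysed in R 4.3.3 with edgeR 4.0.16: filterByExpr left 13632 genes, TMM scaled the libraries, and 1 quasi-likelihood model with 1 mean per group had 3 residual degrees of freedom. Calls needed a Benjamini-Hochberg adjusted p under 0.05 over all tested genes. DESeq2 1.42.0 and limma 3.58.1 (voom) were run beside it. CPM is TMM-scaled, log2 CPM has a prior count of 2, and per-length levels divide CPM by the union of annotated exons in kb. A limit for 0 counts is 3 counts of the library total. Limits cover counting error only, since the labels name no molecular identifiers. The script was tested on simulated counts.

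All 8 members were named, with up to 4 genes per list by smallest p, and for members varying by at least 2-fold the 3 genes of 5 CPM or more with the closest profile. The members and the 17 gene lists were chosen with earlier results of these data known, and a few genes of the lists are not reported here. Of 206 list genes 199 were found by symbol. Alternatives were DESeq2's size factors, no low-count filter, the other tools, a replicate block, leaving out each library, and fitting only the groups compared.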

Additional observations from a re-analysis of the deposited data

How the results depend on the processing

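By edgeR 0 genes were called in every comparison, with the main settings, with DESeq2's size factors, with a replicate block, without any 1 library (0 to 0 genes) and, for the pairwise comparisons, with only the 2 groups fitted. With no filter on low counts, edgeR called 12 genes for vehicle over transgenic, 92 for progesterone over vehicle, 28 for progesterone over transgenic and 140 for any difference, and DESeq2 called 66, 75, 47 and 120. The cause was not tested, and no member was called under any alternative.

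Among the 24 member fold changes, no sign turned with another scaling, filter, DESeq2 or the 2-group fit. For progesterone over vehicle, limma-voom gave -0.045 for Plat and -0.50 for Serpinb2, and the replicate block -0.067 for Plat. The block turned no other sign and changed no call. Replicate numbers do not pair libraries in the labels, and differences between replicates correlated across genes at -0.13, -0.17 and 0.08 between groups.

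Leaving out each library gave these ranges where a sign turned. For vehicle over transgenic, Plat ran from -0.79 to 0.28 and Serpine2 from -0.75 to 0.52. For progesterone over vehicle, Plat ran from -0.69 to 0.49, Serpine2 from -0.31 to 1.41, Serpinb2 from -2.21 to 1.26 and Timp1 from -0.17 to 0.64. For progesterone over transgenic, Plau ran from -0.44 to 0.25, Plat from -1.04 to 0.29, Serpine2 from -0.56 to 1.30, Timp1 from -0.40 to 0.41 and Timp3 from -1.29 to 2.09. Every member had 52 counts or more in every library, and with 2 libraries per group the spread between replicates limits what can be said of the low members.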

Other observations

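Other cell type lists differed between the same libraries, with 0 genes called by edgeR. Mast cell markers summed to 111 and 213 CPM in progesterone, 33.3 and 35.1 CPM in vehicle and 18.4 and 36.8 CPM in transgenic libraries. Of the 8 mast cell genes 7 were higher for progesterone over vehicle (7 at an unadjusted p under 0.05, median log2 fold change 2.98) and 7 for progesterone over transgenic (7 at an unadjusted p under 0.05, median 3.61). Over all tested genes 5.29% and 5.27% had an unadjusted p under 0.05 in these comparisons, and the medians were 0.0065 and 0.0061. Ms4a2 had 1.78 and 2.90 CPM in progesterone and 0.185 to 0.515 CPM in the other libraries. Fcer1a had 1.47 and 5.09 CPM in progesterone and 0.111 to 0.343 CPM in the others. Genes as low as Fcer1a outside progesterone passed the filter through that group, where they were higher. The mast cell counts and medians are therefore partly set by the filter and are not read as a result. T cell markers were low, at a summed 6.61 and 5.38 CPM in progesterone, 2.02 and 1.43 CPM in vehicle and 3.22 and 13.8 CPM in transgenic libraries. All 7 tested T cell genes were higher for progesterone over vehicle (median 2.14, all genes 0.0065) and lower for vehicle over transgenic (median -2.36, all genes -0.011). Cd4 and Cd8a each had 0.172 and 0 CPM in vehicle libraries, and Lck had 0.515 and 0.848 CPM. Genes as low as Cd4 there passed the filter through other libraries, where they were higher. The directions are therefore partly set by the filter and are not read as a result. Skeletal muscle markers summed to 5.09 to 15.7 CPM and adipocyte markers to 6.55 to 31.3 CPM over the 6 libraries, adipocyte markers being highest in progesterone replicate 2, where Timp3 and Serpine2 were also highest. The part of these cells in the member values was not tested.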
